A study of Mus musculus with 8 samples.

Results

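Conventional dendritic cells were examined here through 10 of their identity genes: the growth factor receptor Flt3, the transcription regulators Zbtb46, Batf3, Irf4 and Id2, the integrin Itgax, the chemokine receptor Xcr1, and the lectins Clec9a, Cd209a and Clec10a. All probe sets whose single gene symbol in the platform annotation was one of these names were taken, which gave 15 of 45037 probe sets and 9 of the 10 genes. For Clec9a no probe set was matched under this rule, and it is not analysed here. The samples were 8 Affymetrix arrays of total RNA from mice, 2 each from Aire-knockout spleen, Aire-wild-type spleen, Aire-knockout lymph node and Aire-wild-type lymph node, with the arrays of a group lettered A and B. The title places the study in extrathymic Aire expression and deletional tolerance. The labels give no age, strain, other allele, sorting step or cell type, and they do not say whether A and B were separate animals. In every group A and B differed in sex-linked signal, given below, so they were not repeats of the same RNA. A p-value here speaks only of the spread among these arrays, whose animal, sex-linked and technical parts cannot be told apart.

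Conventional dendritic cells take up antigen and present it to T cells. They arise under the cytokine that binds Flt3 and are set apart from monocytes and macrophages by the factor Zbtb46. Batf3, with Irf8, is needed for the cross-presenting subset that carries Xcr1 and Clec9a, while Irf4 serves the subset that carries lectins such as Cd209a and Clec10a. Id2 favours conventional over plasmacytoid dendritic cells by holding back E proteins, a class of basic helix-loop-helix factors. When these cells mature and migrate to the T cell zones they turn on Ccr7 and Fscn1 and lower many of the receptors that mark the resting subsets.

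Signals are MAS5 values shifted to a common array median, on a linear scale, with the pooled median at 59.0 and a floor, the 20th percentile of all values, at 9.58. Before that shift the array medians ran between 53.8 and 65.3. Aire itself had 1009 and 2376 in knockout spleen against 5037 and 5204 in wild-type spleen, and 791 and 1137 in knockout lymph node against 3052 and 3535 in wild-type lymph node. Xist and the Y-linked Eif2s3y were both well above the floor on both knockout A arrays and both wild-type B arrays. The knockout B arrays had only Eif2s3y and the wild-type A arrays only Xist at such levels. The mix of sex-linked signal thus differed between the genotypes, and between A and B in every group. Among 12 measured genes of mature migratory dendritic cells, Ccr7 and Fscn1 included, 11 lay above the pooled median on every array, as 43.4% of all 18193 genes did. No B cell, monocyte and neutrophil, erythroid or megakaryocyte, stromal and endothelial, or spleen stromal identity marker did so on every array. Of measured plasmacytoid dendritic cell markers 6 of 10 did, of macrophage markers 6 of 15 and of proliferation genes 4 of 12. So did 2 of 8 plasma cell, 2 of 7 epithelial, 1 of 9 T cell and 1 of 8 NK or innate lymphoid markers.

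Of the 9 measured identity genes, 7 passed the filter for testing, a signal above the pooled median on at least 2 arrays. Flt3, Zbtb46, Batf3, Irf4, Id2 and Itgax lay above it on all 8 arrays. Clec10a did so on 4, of which 3 were knockout arrays. Xcr1 and Cd209a stayed under it on all 8, as 30.3% of all genes did, and were not tested. A linear model across all 11557 tested genes (limma, 4 group means, Benjamini-Hochberg adjustment over all genes) called 0 of the 7 genes in each of the 5 comparisons made, where 0% of all genes were called. The lowest adjusted p of any member was 0.559 in spleen, 1 in lymph node (rounded), 0.578 for the averaged genotype effect, 0.701 between the tissues and 0.999 for the difference between the 2 genotype effects. Every difference below is therefore a measured value that did not pass the test, given on the log2 scale with its SE. With 2 arrays a group these intervals are wide, and a p that misses the threshold does not show that levels were alike.

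**Figure D1:**
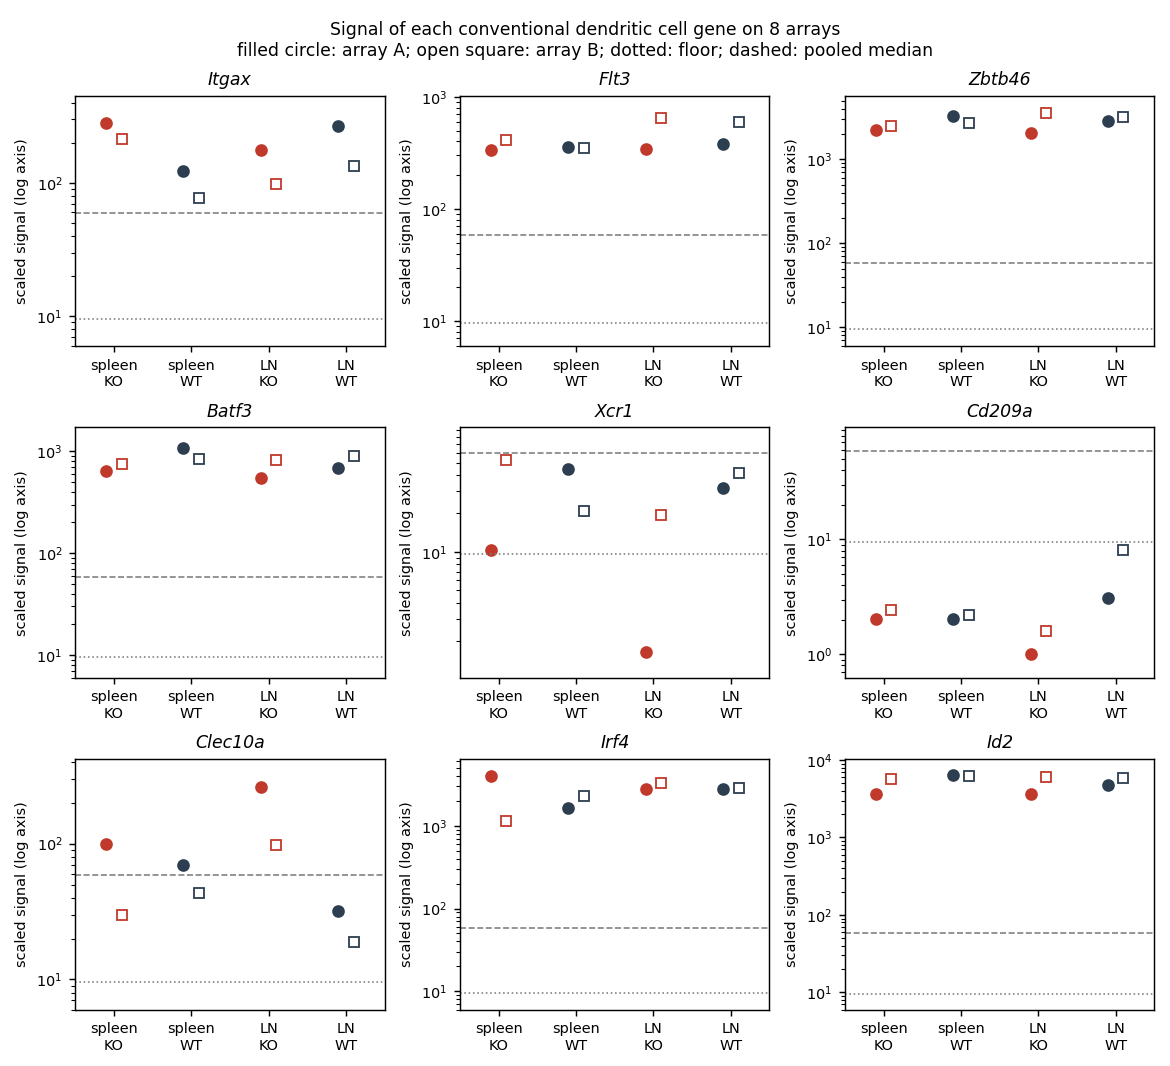
Scaled signal (log axis) of the 9 measured genes, 1 probe set each, on the knockout (red) and wild-type (dark blue) arrays of spleen and lymph node (LN); filled circles are arrays A and open squares arrays B. Zbtb46, Irf4 and Id2 lie far above the pooled median of 59.0 (dashed) on every array, and Cd209a lies under the floor of 9.58 (dotted) on every array.

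Flt3, the receptor that dendritic cell precursors depend on, was nearly level between the genotypes. Its signal was 332 and 415 in knockout spleen against 354 and 349 in wild-type spleen, and 341 and 641 in knockout lymph node against 378 and 599 in wild-type lymph node. The groups overlapped in both tissues. In both lymph node groups the B array was the higher one. Knockout minus wild-type was 0.08 ± 0.42 in spleen (limma adjusted p = 0.976) and -0.02 ± 0.42 in lymph node (limma adjusted p = 1), with 95% intervals from -0.92 to 1.07 and from -1.02 to 0.97.

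By the probe set standing for each gene, Zbtb46, Batf3 and Id2 were lower on both knockout spleen arrays than on either wild-type spleen array. These are the 3 regulators among the members other than Irf4, whose spleen groups overlapped, with a difference of 0.16 ± 0.57. Zbtb46 had 2236 and 2500 in knockout spleen against 3240 and 2709 in wild-type spleen. Batf3 had 637 and 756 in knockout spleen against 1069 and 834 in wild-type spleen. For all 3 the lowest spleen signal was that of knockout array A. Id2 had 3662 and 5656 in knockout spleen against 6383 and 6272 in wild-type spleen. The knockout minus wild-type differences were -0.33 ± 0.36 for Zbtb46 (limma adjusted p = 0.848), -0.44 ± 0.36 for Batf3 (limma adjusted p = 0.788) and -0.48 ± 0.39 for Id2 (limma adjusted p = 0.789). Without knockout spleen A the values were -0.25, -0.32 and -0.16. Non-overlapping groups with knockout lower were thus found for 3 of 7 members in spleen, beside 23.9% of all genes tested, and with knockout higher for 1 of 7, beside 13.3%.

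In lymph node the same 3 genes were lower on array A than on array B in both genotypes. Zbtb46 had 2054 and 3591 on knockout arrays A and B against 2864 and 3158 in wild-type lymph node. The knockout arrays there held both its lowest and its highest signal of all 8 arrays. Batf3 had 548 and 829 in knockout against 679 and 889 in wild-type lymph node, and Id2 had 3613 and 6092 against 4813 and 5788. All 3 groups overlapped, with differences of -0.15 ± 0.36 for Zbtb46, -0.20 ± 0.36 for Batf3 and -0.17 ± 0.39 for Id2 (limma adjusted p = 1 for each). Without knockout array A of lymph node these became 0.26, 0.09 and 0.21, and without knockout array B -0.55, -0.50 and -0.55, so the sign in lymph node rested on knockout array A. Averaged over the tissues, leaving out both knockout A arrays gave 0.01 for Zbtb46, 0.02 for Id2 and -0.11 for Batf3, against -0.24, -0.32 and -0.32 with all arrays.

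By the probe set standing for each gene, Zbtb46, Batf3 and Id2 varied together across the 8 arrays. Their r values, the highest among the member pairs, were singled out after being seen. An r over 0.9 was reached by 100 genes with Batf3 and 108 with Id2, of 10977 named genes. The other Zbtb46 probe sets disagreed, as given below. Pearson's r of log2 signal was 0.81 between Zbtb46 and Batf3, 0.82 between Zbtb46 and Id2, and 0.90 between Batf3 and Id2, as a description over 8 arrays that share scaling and RNA within each array. Each of the 3 genes had its lowest value on knockout lymph node A and its second lowest on knockout spleen A. Itgax and Irf4 had their highest value on knockout spleen A, and Clec10a on knockout lymph node A. Both knockout A arrays also had the highest mean over 15 macrophage markers, though single markers such as Spic did not follow it. That mean log2 signal was 9.30 and 7.44 in knockout spleen against 6.92 and 6.26 in wild-type spleen. In lymph node it was 9.02 and 7.93 in knockout against 7.31 and 6.39 in wild-type. The mean of 12 proliferation genes was 8.74 and 6.70 in knockout against 6.29 and 6.18 in wild-type spleen, and 7.83 and 6.79 in knockout against 6.38 and 5.68 in wild-type lymph node. The mature migratory list held between 10.88 and 11.32 on the 8 arrays, lowest on knockout lymph node A, and its genes moved in opposite directions. On knockout A of spleen and lymph node Ccr7 had 8641 and 8241 and Cd83 had 6232 and 5856, their lowest signals. Ccl17 had its highest signal on knockout spleen A and Cd80 on knockout lymph node A. The further genes of the cross-presenting and Irf4-dependent subsets were also highest on average on the knockout A arrays, at 8.35 and 8.74 in spleen and 8.41 and 8.54 in lymph node. Single genes went both ways. Wdfy4 and Sirpa had their highest signal on knockout spleen A, while Esam had its lowest there. Irf8 and Ly75 had their lowest on knockout lymph node A. Knockout spleen A further had the highest means of the monocyte and neutrophil (7.95), B cell (7.67), plasma cell (9.32), erythroid and megakaryocyte (7.28) and plasmacytoid dendritic cell (8.52) lists. What part these levels had in the values of the identity genes was not tested, and in such bulk samples fewer cells of a type and less RNA per cell cannot be told apart.

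**Figure D2:**
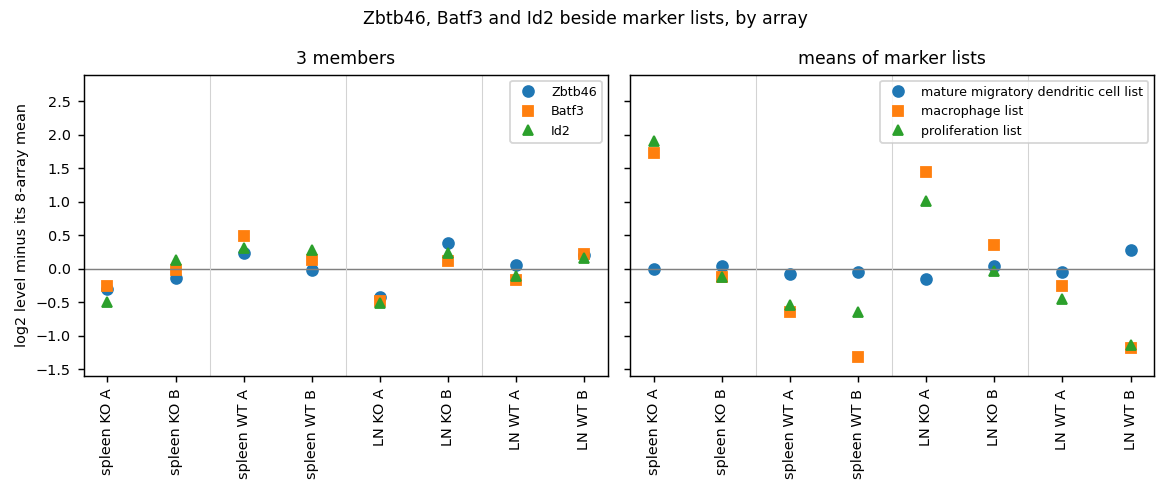
Log2 level minus its 8-array mean on each array, for Zbtb46, Batf3 and Id2 (left) and for the mean of the mature migratory dendritic cell, macrophage and proliferation marker lists (right), with KO for knockout, WT for wild-type and LN for lymph node. The 3 genes are lowest on the knockout A arrays, where the macrophage and proliferation lists are highest.

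The annotated promoter windows of these 3 genes are shown because the signals of the probe sets standing for them varied together. That of Irf4 is shown because its signal did not vary with theirs (r between -0.49 and -0.04). Each is the RefSeq window of 250 bases before and 50 bases after an annotated start in build GRCm38.p6, 5′ to 3′ on the gene's strand. Capitals mark the motifs found: TGANTCA, the AP-1 site that Batf3 binds with a Jun partner, and CANNTG, the E-box of the E proteins that Id2 holds back. Also searched were the interferon-stimulated response element (GAAA, any 2 bases, GAAA) and the ETS-IRF element (GGAA, any 2 bases, GAAA). All were read on both strands, neither element was in these 4 windows, and no matches overlapped.
Zbtb46, chr2:181424339-181424638 (minus strand): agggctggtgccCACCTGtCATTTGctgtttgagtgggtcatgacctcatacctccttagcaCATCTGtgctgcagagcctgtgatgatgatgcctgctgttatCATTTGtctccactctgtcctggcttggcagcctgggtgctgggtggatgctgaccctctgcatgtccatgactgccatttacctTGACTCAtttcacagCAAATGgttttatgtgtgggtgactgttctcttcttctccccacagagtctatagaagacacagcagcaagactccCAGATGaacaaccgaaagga
Batf3, chr1:191098164-191098463 (plus strand): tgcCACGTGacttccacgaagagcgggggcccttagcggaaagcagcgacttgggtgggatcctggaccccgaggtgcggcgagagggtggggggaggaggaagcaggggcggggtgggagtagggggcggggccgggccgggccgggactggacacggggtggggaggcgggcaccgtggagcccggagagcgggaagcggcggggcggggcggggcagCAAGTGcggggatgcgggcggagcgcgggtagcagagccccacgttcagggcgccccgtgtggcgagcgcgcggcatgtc
Id2, chr12:25096043-25096342 (minus strand): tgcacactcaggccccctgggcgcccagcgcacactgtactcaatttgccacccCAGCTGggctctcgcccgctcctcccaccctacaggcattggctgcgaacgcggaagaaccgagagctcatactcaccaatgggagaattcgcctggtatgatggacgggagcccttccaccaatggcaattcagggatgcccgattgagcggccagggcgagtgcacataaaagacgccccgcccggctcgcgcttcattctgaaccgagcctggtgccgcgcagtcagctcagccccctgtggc
Irf4, chr13:30748983-30749282 (plus strand): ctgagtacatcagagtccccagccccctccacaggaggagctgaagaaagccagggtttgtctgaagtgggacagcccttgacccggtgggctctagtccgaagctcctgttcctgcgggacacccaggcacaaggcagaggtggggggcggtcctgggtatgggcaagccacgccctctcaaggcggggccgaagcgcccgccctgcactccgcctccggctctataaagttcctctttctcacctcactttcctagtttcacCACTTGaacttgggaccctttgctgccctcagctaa

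The Zbtb46 window held 1 AP-1 match and 6 E-box matches, and the others no AP-1 match and 2 (Batf3), 1 (Id2) and 1 (Irf4) E-box matches. Of all 32851 promoter windows, 7.81% held TGANTCA, 72.3% CANNTG, 3.44% the interferon-stimulated response element and 2.72% the ETS-IRF element. Among the other members with a window, Itgax also held an AP-1 match, and Cd209a an ETS-IRF match. The 3 genes that varied together did not share base composition there. The windows of Batf3 and Id2 held 34 and 21 CpG dinucleotides and that of Zbtb46 held 1, beside a median of 7 over all windows. Whether each annotated start is the one used in these samples was not tested. The bases before the Zbtb46 start end in a stretch rich in c and t and then ag, as introns often do. That window may therefore hold intron and exon sequence and not its promoter. A match is a description of these letters and not a shown binding site.

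Genes with several probe sets allowed a check within each array. All 3 Id2 probe sets were lower on both knockout spleen arrays. The second, 1422537_a_at, had 1850 and 2452 in knockout against 3280 and 3395 in wild-type spleen, and the third, 1453596_at, had 618 and 585 against 1051 and 1034. When every probe set was tested on its own their spleen differences were -0.65 ± 0.41 and -0.79 ± 0.54 (limma adjusted p = 0.754 and 0.773). The Zbtb46 probe sets disagreed. Beside 1454884_at, described above, 1440489_at was lower in knockout spleen by the same measure (-0.70 ± 0.39, limma adjusted p = 0.716), 1429168_at was level (0.04 ± 0.43) and 1453856_at was higher (0.88 ± 0.46, limma adjusted p = 0.698). Over the 8 arrays r with 1454884_at was 0.84, 0.57 and 0.18 for these 3. Which transcripts each probe set reads was not tested.

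**Figure D3:**
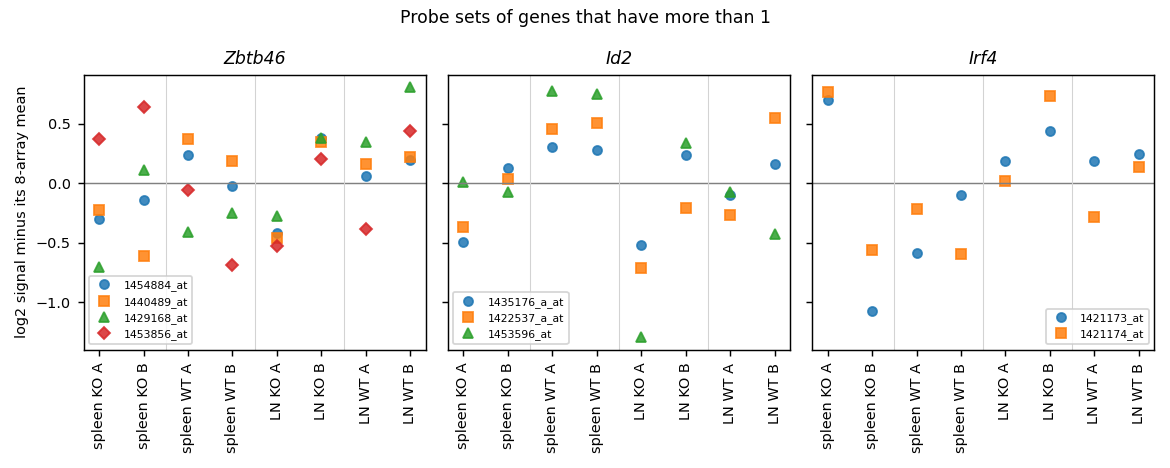
Log2 signal of each probe set minus its 8-array mean for Zbtb46 (4 probe sets), Id2 (3) and Irf4 (2), by array, with KO for knockout, WT for wild-type and LN for lymph node. The Id2 probe sets all fall lower on the knockout than on the wild-type spleen arrays, while the Zbtb46 probe sets spread in both directions in spleen.

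Irf4, a factor of dendritic cells, plasma cells and activated lymphocytes, had its highest and its lowest signal in the same group. Knockout spleen A read 3983 and knockout spleen B 1159, against 1628 and 2279 in wild-type spleen. The lymph node groups lay close together, with 2783 and 3316 in knockout against 2793 and 2906 in wild-type. Knockout minus wild-type was 0.16 ± 0.57 in spleen (limma adjusted p = 0.964) and 0.09 ± 0.57 in lymph node (limma adjusted p = 1). The spleen value was -0.73 without knockout array A and 1.05 without B. Its second probe set gave the same order in knockout spleen, 1109 (A) and 442 (B) against 562 and 432 in wild-type, with r of 0.77 between both over 8 arrays. The mean log2 signal of 8 plasma cell markers was 9.32 and 7.44 in knockout spleen against 8.28 and 6.94 in wild-type spleen, and their part in Irf4 was not tested.

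Itgax, the CD11c integrin chain of dendritic cells that some macrophages and lymphocytes also carry, was higher on both knockout spleen arrays than on either wild-type one. It had 282 and 212 in knockout spleen against 124 and 77.2 in wild-type spleen. In lymph node the groups overlapped, with 177 and 98.5 in knockout against 269 and 133 in wild-type. The spleen difference was 1.32 ± 0.50, a 2.51-fold higher level (unadjusted p = 0.033, limma adjusted p = 0.559), and the lymph node difference was -0.52 ± 0.50 (limma adjusted p = 1). The spleen difference was 1.12 without knockout array A and 1.53 without B. Itgax was the 1 member of 7 with an unadjusted p under 0.05 in spleen, beside 8.42% of all genes. The spleen minus lymph node contrast of the genotype effects was 1.84 ± 0.71 (unadjusted p = 0.0352, limma adjusted p = 0.999). Its r with Zbtb46, Batf3 and Id2 lay between -0.70 and -0.54 over the 8 arrays.

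Clec10a, a galactose-binding lectin of one dendritic cell subset and of some macrophages, was the member with the largest genotype difference. In lymph node it had 261 and 97.4 in knockout against 32.1 and 18.9 in wild-type, so the groups did not overlap. In spleen it had 99.2 and 30.0 in knockout against 69.6 and 43.3 in wild-type, with knockout on both sides. Among wild-type arrays only spleen A, at 69.6, lay above the pooled median. Clec10a thus entered the test through the knockout arrays where it is high. The lymph node difference was 2.69 ± 0.72, a 6.47-fold higher level with a 95% interval from 0.999 to 4.39 (unadjusted p = 0.00712, limma adjusted p = 1). It was 1.98 without knockout array A and 3.41 without B. The spleen difference was -0.01 ± 0.72 (limma adjusted p = 0.997), and the spleen minus lymph node contrast of the genotype effects was -2.70 ± 1.01 (unadjusted p = 0.0322, limma adjusted p = 0.999).

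In lymph node Clec10a was the 1 member of 7 whose groups did not overlap, beside 30.9% of all genes, and the 1 with an unadjusted p under 0.05, beside 3.38%. Averaged over the tissues it was again the 1 of 7 under that p (1.34 ± 0.51, limma adjusted p = 0.578), beside 8% of all genes, while exchanging genotypes within each tissue (exact permutation test, two-sided) gave p = 0.222. For the contrast of the genotype effects 2 of 7 members had such a p, Itgax and Clec10a, beside 3.42%. Because Clec10a entered the test through its high knockout arrays, these shares and p-values lend its difference no support. The median difference of the macrophage markers was 1.76 in lymph node, and 2.11 in spleen, where that of Clec10a was -0.01. Their part in Clec10a was not tested. Mgl2, a close relative of Clec10a in the mouse, was chosen after its values were seen. It was not tested, having passed the pooled median on 1 array, and had 39.6 and 101 in knockout against 12.5 and 3.61 in wild-type lymph node. In spleen Mgl2 had 36.3 and 24.1 in knockout against 2.73 and 49.9 in wild-type, so these groups overlapped. Its wild-type values of 2.73 and 3.61 were under the floor. Cross-hybridisation between these probe sets was not tested, so the split between the 2 lectins is uncertain.

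**Figure D4:**
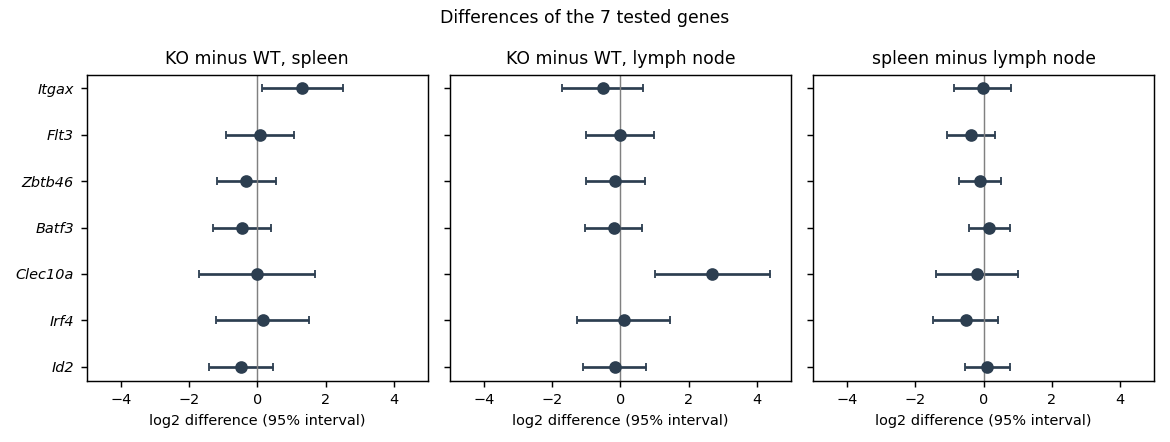
Log2 difference with its 95% interval for the 7 tested genes, in 3 panels: knockout minus wild-type within spleen, knockout minus wild-type within lymph node, and spleen minus lymph node over both genotypes. Intervals that do not reach 0 before adjustment are those of Itgax in spleen and Clec10a in lymph node.

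Xcr1, the chemokine receptor of the cross-presenting subset, stayed under the pooled median on every array. It had 10.3 and 52.1 in knockout spleen against 44.6 and 20.9 in wild-type spleen, and 1.65 and 19.6 in knockout lymph node against 31.4 and 41.2 in wild-type lymph node. The knockout A array was the lowest in each tissue. The lymph node groups did not overlap and the spleen groups did. With no filter on low genes the differences were -0.40 ± 0.89 in spleen (limma adjusted p = 0.955) and -1.39 ± 0.89 in lymph node (limma adjusted p = 1), with 1 knockout lymph node array under the floor. Cd209a, a mouse relative of the DC-SIGN lectin, did not exceed 8.12 on any array, so no fold is given, and 2.85% of all genes were at the floor on all 8 arrays, as Cd209a was. Its relatives Cd209b, Cd209c, Cd209d and Cd209e reached at most 43.9, 26.9, 83.1 and 27.0.

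Between the tissues, with genotypes averaged, 0 of the 7 genes had groups of 4 spleen and 4 lymph node arrays that did not overlap, beside 5.72% of all genes, and 0 had an unadjusted p under 0.05, beside 10.7%. Spleen minus lymph node was lowest for Irf4 at -0.53 ± 0.41 (limma adjusted p = 0.701) and Flt3 at -0.38 ± 0.30 (limma adjusted p = 0.706), and highest for Batf3 at 0.16 ± 0.25 (limma adjusted p = 0.875). The median over the 7 was -0.11, beside 0.06 over all genes. An exact two-sided permutation of tissue within genotype over 36 assignments, whose smallest p is 0.0556, gave p = 0.278 for Irf4 and p = 0.222 for Flt3.

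The median knockout minus wild-type difference of the 7 genes was -0.01 in spleen, beside -0.09 over all genes, and -0.15 in lymph node, beside -0.03. Averaged over tissues it was 0.03, beside -0.06, and 0 of 7 genes had knockout beyond wild-type arrays in the same direction in both tissues, beside 8.75% of all genes. When the 4 groups were ordered by mean level for each gene, 2 of 21 neighbouring pairs had arrays that did not overlap, beside 20.3% of such pairs over all genes. These were knockout lymph node over wild-type spleen for Clec10a and wild-type spleen over wild-type lymph node for Id2. Over the 8 arrays the range was 3.79 for Clec10a on the log2 scale and between 0.81 and 1.87 for the other 6. The lowest ranges were those of Zbtb46 and Id2, at percentiles 15.2 and 15.9 of all genes tested.

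Other dendritic cell genes were read beside the identity genes. Of 15 further genes of the cross-presenting subset 12 were tested and 0 called in any comparison. Averaged over tissues 6 were higher and 6 lower in knockout, where 43.3% of all genes were higher, with a median of 0.06 beside -0.06 over all genes. Cd8a, the T cell coreceptor chain also carried by that subset in mouse spleen, had the largest averaged genotype difference at 1.29 ± 0.44 (limma adjusted p = 0.54) and the largest tissue difference at -1.30 ± 0.44 (limma adjusted p = 0.382). Next came Rab7b, a small GTPase, for genotype at 0.70 ± 0.35 and Ly75, the DEC-205 endocytic receptor, for tissue at 0.67 ± 0.38. Among wild-type arrays Rab7b passed the pooled median only on lymph node A, at 60.2. It thus entered the test through the knockout arrays where it is high.

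Of 14 further genes of the Irf4-dependent subset 10 were tested and 0 called, with 4 higher and 6 lower in knockout and a median of -0.21. Cd7, an immunoglobulin-family surface protein, had 966 and 1421 in knockout spleen against 3742 and 4110 in wild-type spleen. It had 748 and 607 in knockout lymph node against 1727 and 2250 in wild-type lymph node. All knockout arrays were under all wild-type arrays for Cd7, with an averaged difference of -1.65 ± 0.24 that did not pass (unadjusted p = 0.000273, limma adjusted p = 0.157). Clec4a2, a lectin receptor, followed at 1.32 ± 0.86 (limma adjusted p = 0.729). It lay above the pooled median only on 3 knockout arrays, which put it into the test, and 1 wild-type array was under the floor. Between the tissues Dtx1, a ubiquitin ligase of the Notch pathway, was higher on each of the 4 spleen arrays, where it lay between 179 and 474, than on any lymph node array, where it lay between 37.1 and 104. Its difference was 2.24 ± 0.41 (limma adjusted p = 0.197). Il1r2, a decoy receptor for interleukin 1, differed by -3.01 ± 0.92 (limma adjusted p = 0.347), a value that rests on the floor, since 2 of the 4 spleen arrays were under it.

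Of 20 further genes of dendritic cell development 19 were tested and 0 called, with 6 higher and 13 lower in knockout and a median of -0.29. Csf1r, the macrophage growth factor receptor, differed by 2.99 ± 1.50 (limma adjusted p = 0.674), with signals spread far within groups: 5798 and 337 in knockout against 738 and 1.16 in wild-type spleen, and 3834 and 1551 in knockout against 1252 and 330 in wild-type lymph node. The lymph node groups did not overlap and the spleen groups did, with 1 wild-type spleen array under the floor. Btla, an inhibitory receptor, differed by 1.15 ± 0.36 (limma adjusted p = 0.493). Between the tissues Csf1r stood at -1.87 ± 1.50 and Csf2rb, a shared cytokine receptor chain, at -1.02 ± 0.37 (limma adjusted p = 0.402).

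Of 27 partners and paralogs of the identity genes 16 were tested and 0 called, with 6 higher and 10 lower in knockout and a median of -0.07. Batf, an AP-1 factor of the same family as Batf3, had 223 and 91.0 in knockout spleen against 28.8 and 6.12 in wild-type spleen. In lymph node it had 141 and 143 in knockout against 14.9 and 56.2 in wild-type. Only knockout arrays lay above the pooled median, so Batf entered the test through the group where it is high, and 1 wild-type array was under the floor. Its fitted averaged difference was 2.70 ± 0.57 and was not called (limma adjusted p = 0.309). Batf3 itself differed by -0.32 ± 0.25 in the same comparison. Clec7a, the lectin Dectin-1, differed by 0.77 ± 0.62 between genotypes and by -1.06 ± 0.62 between tissues. Cd209d had a fitted tissue difference of -1.24 ± 0.54 (limma adjusted p = 0.48), with only the knockout lymph node arrays above the pooled median and 1 spleen array under the floor.

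For each tested member the 3 named genes with the highest Pearson r of log2 signal over the 8 arrays were listed from 10977 named genes. For Zbtb46 these were Ube2l6 (0.98), Itgav (0.96) and Il15 (0.95). For Batf3 they were Suox (0.99), Cdk17 (0.97) and Rnf150 (0.97), and for Id2 they were Rassf4 (0.98), Epsti1 (0.97) and Rnf150 (0.97), so Rnf150 was listed for both. Irf4 was followed most closely by Sf3b3 (0.99), Ppib (0.97) and Lrch1 (0.97). For Flt3 the genes were Foxn2, Mon1b and Zfas1 (each 0.94), for Itgax Ttc37 (0.95), Morrbid (0.94) and Bud31 (0.93), and for Clec10a Atf7 (0.96), Rwdd2b (0.94) and Rnf25 (0.94). Between 9 and 108 genes had an r over 0.9 with a given member, the fewest with Clec10a and the most with Id2, so these listings describe 8 arrays and no more.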

How the data were processed

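RNA of 8 samples was hybridised to Affymetrix mouse arrays. The authors deposited 1 linear intensity per probe set, made with MAS5 per the submitters' processing notes, version not stated. The 2% trimmed mean of every deposited array was 250.0, so arrays had been scaled.

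Of 45101 probe sets 64 controls were left out. Of the rest, 34945 carried 1 gene symbol, 932 several and 9160 none. Arrays were shifted to a common median, values under 9.58 raised to it, and log2 taken. The probe set with the highest mean stood for a gene. Genes above 59.0 on at least 2 arrays, 11557 of 18193, were tested with limma 3.58.1 in R 4.3.3, with 4 residual and 2.96 prior degrees of freedom, and called at adjusted p under 0.05. The fit was tested on simulated data. The number of arrays limits the precision.

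By rule, the named genes were all members, the 3 most correlated genes of each, and genes from each list of other dendritic cell genes. From those lists came the genes called plus the 2 with the largest averaged genotype and tissue differences. Other genes were named outside this rule with their values known, such as Spic, Ccr7, Fscn1, Cd83, Ccl17, Cd80, Wdfy4, Sirpa, Esam, Irf8, Mgl2 and the Cd209a relatives. The members, lists and tests were chosen with earlier results of these data known. Alternatives covered scaling, floor, filter, probe set choice, prior, replicate block and left-out arrays. Promoters are RefSeq's (9 of 10 genes matched).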

Additional observations from a re-analysis of the deposited data

How the results depend on the processing

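The count of members called was 0 in every comparison under each of the 23 alternatives that could give it, and the lowest adjusted p of any member was 0.165 (Irf4 between tissues, without spleen knockout A). Of 581 recomputed member differences 544 kept their direction and side of the threshold, and 37 changed sign, 13 of them outside the fits that left out 1 array. No cause of these changes was tested. Clec10a in spleen was 0.10 with no median scaling, 0.020 with the floor added and 0.10 with the floor at the 40th percentile, and Flt3 in lymph node was 0.014 with no median scaling. Leaving out both knockout A arrays, an alternative chosen after seeing the data, gave a member median of 0.22 in lymph node. In that fit lymph node differences were 0.43 for Flt3, 0.26 for Zbtb46, 0.093 for Batf3 and 0.21 for Id2. Averaged differences were 0.0053 for Zbtb46, -0.26 for Irf4 and 0.023 for Id2, Irf4 in spleen was -0.73 and Itgax between tissues was 0.077.

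With 1 array left out at a time, a lone array being assumed to vary like the other groups, the member median ran from -0.35 to -0.0094 in spleen, -0.48 to 0.22 in lymph node and -0.54 to 0.19 for the difference between tissues in the genotype effect. In spleen the ranges were -0.083 to 0.24 for Flt3, -0.87 to 0.85 for Clec10a and -0.73 to 1.05 for Irf4. In lymph node they were -0.48 to 0.43 for Flt3, -0.55 to 0.26 for Zbtb46, -0.50 to 0.093 for Batf3, -0.034 to 0.22 for Irf4 and -0.55 to 0.21 for Id2. Averaged over tissues Flt3 ran from -0.20 to 0.25 and Irf4 from -0.32 to 0.57. Between tissues the ranges were -0.29 to 0.22 for Itgax, -0.31 to 0.091 for Zbtb46, -0.63 to 0.24 for Clec10a and -0.080 to 0.30 for Id2.

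The labels do not say that the letters pair samples, and deviations of same-lettered arrays correlated at 0.0554 to 0.306 over 6 pairs of groups. Each genotype and letter had the same pattern of Xist and Eif2s3y in spleen as in lymph node. Whether the spleen and lymph node arrays of a genotype and letter shared animals or pools was not tested. The main fit and the permutations treated them as independent. The p-values for the averaged genotype effect and for comparisons between tissues rest on that assumption. With the letter as a replicate block 0 members were called in spleen and lymph node. With genotype and letter as the block, 0 members were called between the tissues, where the lowest limma adjusted p of any member was 0.594. For the difference between the genotype effects 0 were called as well (lowest limma adjusted p = 0.999). That block gave no genotype comparison. Signals under the floor limit Xcr1, Cd209a, Mgl2, Batf, Clec4a2, Cd209d, Il1r2 and Csf1r, and 2 arrays a group limit every difference.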
